A study of Mus musculus with 12 samples.

Results

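Adipocytes made from mouse embryonic stem (ES) cells were compared with adipocytes made from primary mouse embryonic fibroblasts (PMEF). The comparison takes the 3 arrays titled as ES cell adipocytes and the 3 titled as PMEF adipocytes, which are 6 of the 12 arrays of the series, and covers 19938 genes. Both groups are cultures that had been differentiated to fat cells. The labels describe them as biological triplicates without saying whether the replicates were separate differentiations. The p-values below therefore measure the spread between arrays within groups, estimated over all 12 arrays of the series, tissue and 3T3-L1 included. The ES cell line, the embryos behind the fibroblasts, the mouse strain, the sex, the culture medium and the day of differentiation are not stated in the labels. Tissue labelled eWAT, which usually stands for epididymal white fat, came from healthy wild-type mice (3 arrays) and serves below as a point of reference. Adipocytes of the 3T3-L1 line (3 arrays) entered the model fit and the means over all arrays by which probe sets and bright or dim genes were chosen. They are not compared below.

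Fat cells form from mesenchymal progenitors when the nuclear receptor Pparg and the factor Cebpa switch on the genes for lipid uptake, triglyceride storage and hormone secretion. Embryonic fibroblasts start as mesenchymal cells that already make collagen and carry the positional identity of the body region they came from. ES cells start as pluripotent cells, which can give rise to any tissue, and have to pass through a mesodermal or neural crest stage before they reach the fat lineage, so cultures made from them can hold derivatives of other germ layers.

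All values are log2 intensities as deposited, so a difference of 1 is a 2-fold change. Differences are ES minus PMEF with the standard error (SE) of the limma fit and n = 3 arrays in each group, and p-values are Benjamini-Hochberg adjusted over all 19938 genes. Higher and lower are used for genes with an adjusted p under 0.05 in that fit. Between the groups 8501 genes differed, which is 42.6% of the genes tested, with 4713 (23.6%) higher in ES adipocytes and 3788 (19%) lower. At least 2-fold higher were 506 genes (2.54%) and at least 2-fold lower were 832 genes (4.17%). Counts of list members below are to be read beside these shares, which cover bright and dim genes alike. Bright genes were called more often. Of 4195 genes with a mean over 8, 37.8% were higher and 25.7% lower, with a median difference of 0.08. These genes lie on 18 chromosomes, without those described below as shifted upward. For lists made up mostly of bright genes, these values are the closer reference. The arrays of the groups did not overlap for 10450 genes (52.4%), and the median difference over all genes was -0.02. Pearson correlations across genes, which are not independent replicates, were 0.997 between ES arrays, 0.995 to 0.996 between PMEF arrays and 0.963 to 0.965 between the groups.

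The balance of higher and lower calls depended on the choice of reference genes for centring. As deposited, 55.4% of the calls were higher in ES adipocytes. When each array was centred on 15 reference genes (the reference list without Hprt), the median of all genes moved to -0.20, 26.2% of the calls were higher, and the counts became 2957 higher and 8350 lower. Those 15 genes include Pgk1, a glycolytic enzyme, and Tfrc, the transferrin receptor, which were themselves 1.84 and 1.20 higher in ES adipocytes. Centring on the other 13 gave a median of 0.00 and 59.1% higher. The share of higher genes among those at least 2-fold different was 37.8% as deposited and 21.3% under the first centring, whose effect on the counts over a whole list is given where one moved by more than 1.5 times.

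Both cultures carried the fat cell programme at high level. The 5 defining adipocyte markers (Adipoq, Plin1, Fabp4, Cidec and Lipe) had means of 11.78 to 12.53 in ES adipocytes and 11.18 to 12.40 in PMEF adipocytes, against a 90th percentile of all genes of 9.30 and 9.26. In eWAT the same genes ran from 12.01 to 12.60. Summed on the linear scale, the 5 markers came to 23966 to 24295 in the ES arrays and 18706 to 19334 in the PMEF arrays. In RNA from a whole culture, more fat cells and more of a transcript per fat cell cannot be told apart, and that holds for every result here.

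Of 32 genes of the adipocyte core list, 21 were higher in ES adipocytes and 1 was lower. The median difference was 0.45, against -0.02 over all genes and 0.08 over the genes with a mean over 8 given above. Under the centring on 15 reference genes 4 were lower, and with a trended and robust variance 2 were. Pparg, the master regulator, was read at 11.05, 11.13 and 11.02 in the ES arrays and at 10.35, 10.14 and 10.41 in the PMEF arrays. The groups did not overlap, and the difference was 0.76 (SE 0.08, adjusted p = 4.84e-06), with the eWAT mean at 11.23. Its partner Cebpa had 10.64, 10.69 and 10.50 against 9.53, 9.85 and 9.63, a difference of 0.94 (SE 0.11, adjusted p = 7.5e-06). Srebf1, which drives lipogenic genes, was 0.92 higher (SE 0.07) and Cebpb, an early factor of the cascade, 0.77 higher (SE 0.07). Ebf1 (0.13, SE 0.07) did not pass the test, and its arrays overlapped. In all, 6 of 9 regulators were higher and none was lower.

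The largest fat cell differences lay among secreted and metabolic proteins. Rbp4, the retinol carrier of plasma, stood at 12.37, 12.36 and 12.29 in the ES arrays and at 8.78, 8.67 and 8.73 in the PMEF arrays. All ES arrays were near the eWAT mean of 11.87 and all PMEF arrays far below it, a 12.2-fold difference (3.61, SE 0.11, adjusted p = 6.1e-11). Pck1, which makes glycerol 3-phosphate for triglyceride storage from pyruvate, read 11.14, 11.17 and 11.15 against 8.02, 7.49 and 7.49, or 11.2-fold (3.49, SE 0.17, adjusted p = 3.36e-09), with eWAT at 12.18. The insulin-responsive glucose transporter Slc2a4 was at 10.23, 10.15 and 10.12 against 8.87, 8.86 and 9.09, a difference of 1.23 (SE 0.09, adjusted p = 1.45e-07), with eWAT at 10.58. For Pparg, Rbp4, Pck1 and Slc2a4 the tissue mean was thus nearer to the ES cultures. For Pparg, Pck1 and Slc2a4 it lay above both cultures, where the higher culture is always the nearer one. Angiotensinogen (Agt) was also higher, at 10.63, 10.71 and 10.56 against 9.44, 9.48 and 9.71 (1.09, SE 0.09), but here eWAT lay below both cultures at 8.13.

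Hormones that mark tissue fat differed less. Leptin (Lep) was low in both cultures, at 6.48, 6.49 and 6.78 against 5.78, 5.45 and 6.02, where eWAT had 10.44. The difference of 0.83 (SE 0.26, adjusted p = 0.0199) no longer passed without ES replicate 3 (adjusted p = 0.0706) or without PMEF replicate 2 (adjusted p = 0.0871). Adiponectin (Adipoq) had 12.20, 12.26 and 12.17 against 12.08, 11.95 and 11.94, a difference of 0.22 (SE 0.07, adjusted p = 0.02). It failed the test under the centring on 15 reference genes (0.04, adjusted p = 0.609) and without PMEF replicate 2 or 3 or ES replicate 2 (adjusted p = 0.0671 to 0.0739). Resistin (Retn, 0.17, SE 0.07) and Angptl4, an inhibitor of lipoprotein lipase (-0.01, SE 0.08), did not pass the test.

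Droplet coat proteins and lipid carriers followed the same division between modest and undetected differences. Cidea, a droplet protein abundant in brown fat, was at 7.51, 7.51 and 7.46 against 5.99, 5.89 and 6.13 (1.49, SE 0.12), with eWAT at 10.55. Plin4 was 0.88 higher (SE 0.06), Plin1, the gatekeeper of lipolysis, 0.59 higher (SE 0.08), and Cidec, which fuses droplets, 0.42 higher (SE 0.07). Lipoprotein lipase (Lpl) was 0.31 higher (SE 0.06), a call lost under the centring on 15 reference genes (0.12, adjusted p = 0.105), and the fatty acid binding protein Fabp5 was 0.52 higher (SE 0.13). Fabp4, which carries fatty acids through the fat cell, gave 12.55, 12.50 and 12.51 against 12.47, 12.36 and 12.36 (0.12, SE 0.06, adjusted p = 0.134). The scavenger receptor Cd36 gave 12.29, 12.27 and 12.28 against 12.44, 12.41 and 12.35 (-0.12, SE 0.06, adjusted p = 0.139). Both lay near the top of the scale of these arrays, whose highest value was 13.48. Gpd1, the glycerol 3-phosphate dehydrogenase, was the core gene called lower as deposited (-0.33, SE 0.08).

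**Figure D1:**
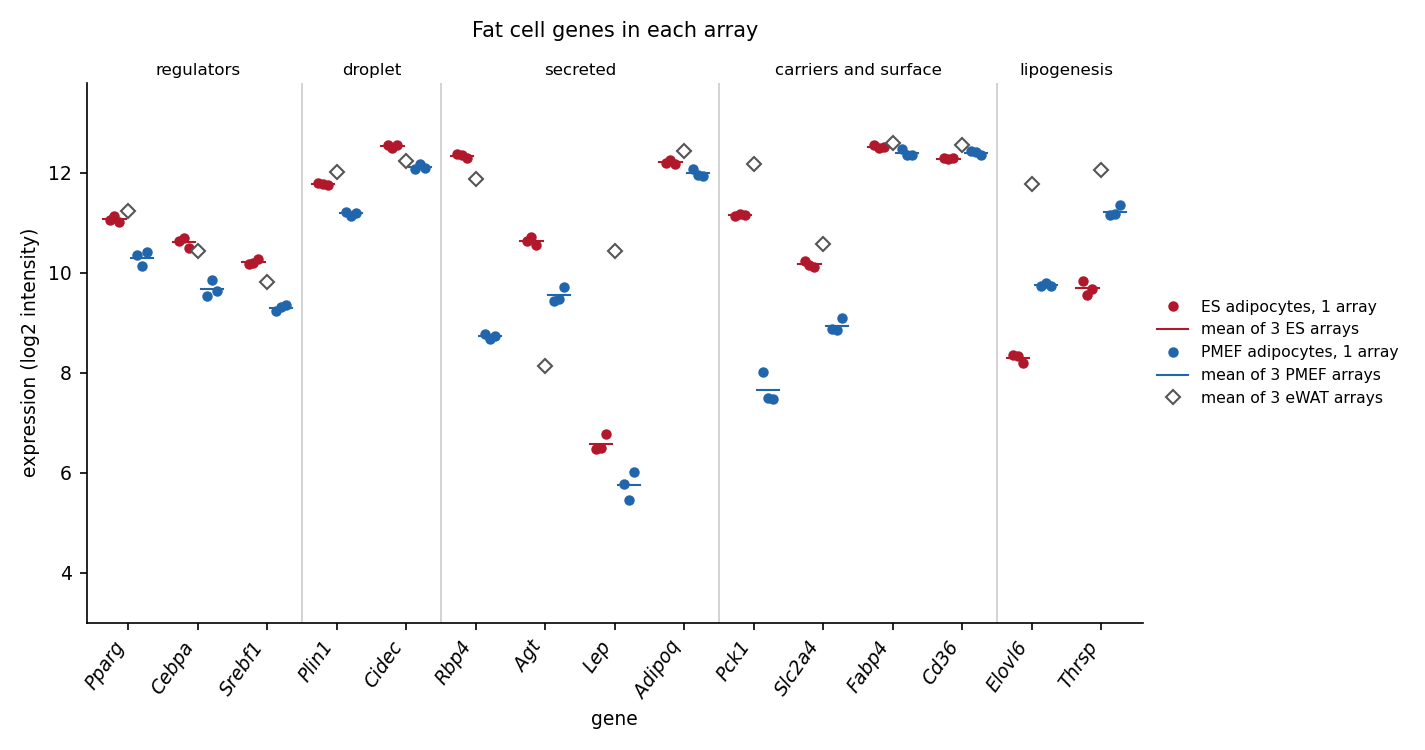
Log2 intensity (vertical axis) of 15 fat cell genes (horizontal axis), with a point for each of the 3 ES (red) and 3 PMEF (blue) arrays, a line at each group's mean and an open diamond at the mean of the 3 eWAT arrays. Rbp4 and Pck1 were over 10-fold higher in ES adipocytes, Fabp4 and Cd36 differed by 0.12 in size, and Elovl6 and Thrsp were lower.

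Lipolysis genes were mostly higher in ES adipocytes, 8 of 10, with 1 lower, although under the centring on 15 reference genes 4 were higher. Pde3b, the phosphodiesterase through which insulin restrains lipolysis, was at 11.38, 11.33 and 11.34 against 10.24, 9.98 and 10.04 (1.26, SE 0.08, adjusted p = 5.89e-08). G0s2, an inhibitor of the triglyceride lipase, was 1.14 higher (SE 0.19). The lipases Lipe (0.59, SE 0.08) and Pnpla2 (0.23, SE 0.06) were higher too, the latter only without that centring (0.05, adjusted p = 0.52 with it), and Mgll, which cleaves the last fatty acid, did not pass (-0.02, SE 0.09). Npr3, the clearance receptor for natriuretic peptides, was lower (-0.67, SE 0.13).

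Enzymes of fatty acid and triglyceride synthesis went both ways, with 8 of 21 higher and 4 lower (7 lower under the centring on 15 reference genes). Among those that esterify fatty acids, Mogat1 was 1.37 higher (SE 0.16), the acyltransferase Gpam 1.01 higher (SE 0.07) and Dgat2, which makes triglyceride, 0.91 higher (SE 0.08). Agpat2, Lpin1 and Dgat1, also on the list, are not given here. Elovl6, which lengthens newly made palmitate, was lower, at 8.36, 8.33 and 8.19 against 9.73, 9.80 and 9.74, with eWAT at 11.77 (-1.46, SE 0.07, adjusted p = 3.85e-09). Thrsp, an activator of lipogenesis in fat and liver, was lower as well, at 9.83, 9.55 and 9.68 against 11.15, 11.17 and 11.35, with eWAT at 12.06 (-1.54, SE 0.11, adjusted p = 8.63e-08). For both genes the PMEF arrays stood between the ES arrays and tissue. Fatty acid synthase (Fasn, 0.13, SE 0.07) did not pass, and the desaturase Scd1 was 0.19 higher (SE 0.06), a difference of 0.01 under the centring on 15 reference genes. The call of Scd1 was also lost without PMEF replicate 3 (adjusted p = 0.0569) or ES replicate 1 (adjusted p = 0.0889). Mlxipl, the carbohydrate-responsive factor of this pathway, was 0.73 higher (SE 0.08).

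Genes of cholesterol synthesis were lower in ES adipocytes, 11 of 18, with 2 higher and a median of -0.45. The higher count was 1 under quantile normalization, with a replicate block, and without any of PMEF replicates 1 to 3 or ES replicates 1 and 3, and 0 under the centring on 15 reference genes. Hsd17b7, a late enzyme of the pathway, read 8.40, 8.43 and 8.33 against 10.13, 9.94 and 10.06 (-1.66, SE 0.10, adjusted p = 3.49e-08). Cyp51, the lanosterol demethylase, was lower by 1.29 (log2 difference -1.29, SE 0.10), Sc5d and Idi1 had differences of -1.02 (SE 0.08) and -1.01 (SE 0.09), and Srebf2, the factor that controls the pathway, of -0.93 (SE 0.07). Hmgcs1, at the pathway's entry, was 0.25 higher (SE 0.07) as deposited and did not pass under the centring on 15 reference genes (0.07, adjusted p = 0.363).

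Breakdown of branched-chain amino acids, a route by which fat cells feed lipogenesis, was higher almost throughout the list, with 18 of 19 genes higher and none lower (1 lower under the centring on 15 reference genes) and a median of 0.63. Bckdhb, a subunit of the branched-chain dehydrogenase, was at 11.24, 11.21 and 11.24 against 9.76, 9.62 and 9.62 (1.57, SE 0.08, adjusted p = 5.95e-09). The transaminase Bcat2 was 1.22 higher (SE 0.08) and Dbt, another subunit of the complex, 1.20 higher (SE 0.07). For Bcat2 the eWAT mean of 9.78 was near the ES mean of 10.01, while for Bckdhb it was near the PMEF mean, 10.03 against 9.67. Acad8 (-0.06, SE 0.09) did not pass the test.

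Of 22 respiratory chain genes, 18 were higher in ES adipocytes and 1 was lower, with 11 higher and 2 lower under the centring on 15 reference genes. Cox4i1, a core subunit of cytochrome oxidase, was 0.90 higher (SE 0.07). The muscle and heart type subunits of that complex moved in opposite directions. Cox7a1 stood at 11.44, 11.32 and 11.47 against 9.51, 9.54 and 9.42 (1.93, SE 0.15, adjusted p = 2.28e-07), and Cox8b at 9.18, 8.72 and 9.15 against 10.83, 10.75 and 10.55 (-1.70, SE 0.15, adjusted p = 6.33e-07). In eWAT these read 9.27 and 11.61, so that for both the PMEF cultures were nearer to tissue. Fatty acid oxidation genes showed 3 of 16 higher (1 under that centring) and 6 lower. Acadvl, for very long chains, was 0.73 higher (SE 0.08), while Eci1 (-0.63, SE 0.07) and Acadm, for medium chains (-0.56, SE 0.08), were lower.

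Thermogenic and beige fat genes did not move as a group, with 8 of 21 higher, 6 lower and 7 not passing. Ucp1, the uncoupling protein, gave 7.44, 7.30 and 7.74 against 7.33, 6.43 and 6.72, with overlapping arrays (0.67, SE 0.47, adjusted p = 0.29). Elovl3, an elongase of brown fat, was bright in both cultures at 10.82, 10.48 and 10.82 against 10.66, 10.53 and 10.61 (0.10, SE 0.28), where eWAT had 5.65. Prdm16, a determinant of brown and beige fat, did not pass (0.05, SE 0.14). Among regulators of oxidation, Ppargc1b was 1.47 higher (SE 0.16), Ppara 1.42 higher (SE 0.17) and Ppargc1a 0.45 higher (SE 0.09). Otop1, a proton channel, was lower (-1.82, SE 0.21).

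Genes of glucose use and of the response to low oxygen held many of the largest rises. The lists for glycolysis, hypoxia, protein folding and amino acid stress were added, and their genes named, after the values had been seen, so their counts describe these arrays and carry no test of the list. Low oxygen stabilises the hypoxia-inducible factors, which bind a short core sequence in DNA and raise glucose import, glycolysis and the enzymes that degrade the factors again. Of 27 known targets, 24 were higher in ES adipocytes and none was lower, with 18 at least 2-fold higher. Over the whole list of 36 genes, 27 were higher and 4 lower (2 lower without PMEF replicate 1), with a median difference of 1.21.

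Ak4, a mitochondrial adenylate kinase, had 10.79, 10.73 and 10.73 in the ES arrays against 6.47, 6.04 and 5.76 in the PMEF arrays, a 25.2-fold difference (4.65, SE 0.14, adjusted p = 5.96e-11). Ndufa4l2, a small protein that lowers respiratory activity in hypoxia, had 10.16, 10.21 and 9.996 against 6.31, 6.37 and 6.49 (3.73, SE 0.11). Egln3, a prolyl hydroxylase that marks the factors for degradation, had 11.58, 11.66 and 11.50 against 8.32, 7.84 and 8.54 (3.35, SE 0.19). The eWAT means were 5.89, 6.84 and 7.44, on the PMEF side for all 3 genes. Also higher were the related hydroxylase Egln1 (1.88, SE 0.09), the mitophagy receptor Bnip3 (2.06, SE 0.09), the vascular growth factor Vegfa (1.76, SE 0.10), the oxidase Ero1a (2.80, SE 0.08) and the carbonic anhydrase Car9 (1.40, SE 0.10). Adrenomedullin (Adm) did not pass (-0.24, SE 0.22), although its ES and PMEF arrays did not overlap. Its standard deviation was 0.09 in ES, 0.13 in PMEF and 0.63 in eWAT arrays, which share 1 estimate of the spread. The transcripts of the factors themselves were lower, by a difference of -1.28 (SE 0.08) for Epas1 and of -0.25 (SE 0.08, adjusted p = 0.0172) for Hif1a. The latter no longer passed without PMEF replicate 1 (adjusted p = 0.0681) or ES replicate 2 (adjusted p = 0.0617). Of the 21 genes of the list that differed at least 2-fold, eWAT was nearer to the PMEF cultures for 19.

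All 4 glucose and lactate transporters of the list were higher, and so were 11 of 13 glycolytic enzymes, with 1 lower. Over the whole list of 30 genes, 21 were higher and 2 lower, with 4 lower under the centring on 15 reference genes. Of the 14 genes of the list that differed at least 2-fold, eWAT was nearer to the ES cultures for 8 and to the PMEF cultures for 6. Slc2a1, the basal glucose transporter, was at 11.37, 11.36 and 11.33 against 8.88, 8.82 and 8.97 (2.46, SE 0.07, adjusted p = 5.96e-11), with eWAT at 8.16. The lactate exporter Slc16a3 was at 9.001, 9.22 and 9.02 against 5.87, 5.94 and 5.99 (3.15, SE 0.09). Aldoc, an aldolase, was at 9.56, 9.66 and 9.55 against 6.17, 6.11 and 6.12 (3.46, SE 0.08, adjusted p = 1.72e-11). Phosphofructokinase (Pfkl, 2.64, SE 0.10), hexokinase (Hk2, 1.82, SE 0.11), Pgk1 (1.84, SE 0.07) and Pdk1, which diverts pyruvate from the mitochondria (1.81, SE 0.09), were higher. The glycogen enzymes Gbe1 (1.92, SE 0.07) and Gys1 (1.59, SE 0.07) were higher, whereas the phosphorylase Pygb (-1.28, SE 0.08) and the enolase Eno2 (-0.72, SE 0.11) were lower.

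The hypoxia-inducible factors are known to bind within the letters ACGTG or GCGTG. Promoters were taken from RefSeq (build GRCm38.p6) as 250 bases before to 50 after each gene's start and searched on both strands. Of 27 genes of the hypoxia list with a promoter in that table, 22 held such a core (81.5%), and of 29 glycolysis genes 22 did (75.9%), against 43.8% of all 27025 promoters. The promoters of Ak4, the gene with the largest difference on these lists, and of Pgk1, whose promoter is a textbook target, are shown as their 250 bases before the start. They are printed 5′ to 3′ on the gene's strand with each core in capitals, where CACGC and CACGT are cores read on the opposite strand. Both genes lie on the plus strand, Ak4 at chr4:101419039-101419288 and Pgk1 at chrX:106186850-106187099. A match is a description of these letters and says nothing of binding in these cultures.
Ak4: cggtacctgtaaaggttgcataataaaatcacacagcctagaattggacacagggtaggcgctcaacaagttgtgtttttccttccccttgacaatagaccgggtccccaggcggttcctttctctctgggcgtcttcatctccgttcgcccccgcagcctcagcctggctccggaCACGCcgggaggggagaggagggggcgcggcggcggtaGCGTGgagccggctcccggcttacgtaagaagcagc
Pgk1: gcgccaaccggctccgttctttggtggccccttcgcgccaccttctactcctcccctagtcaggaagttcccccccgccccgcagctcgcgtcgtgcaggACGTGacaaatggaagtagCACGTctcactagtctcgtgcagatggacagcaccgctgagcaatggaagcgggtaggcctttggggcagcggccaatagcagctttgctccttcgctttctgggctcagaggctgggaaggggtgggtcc

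Protein folding genes of the endoplasmic reticulum were higher in 26 of 28 cases, with 1 lower and a median of 0.83. Secretory cells raise these genes through the unfolded protein response, in which the factors Atf6 and Xbp1 act on an element with the letters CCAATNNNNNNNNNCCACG. Derl3, which helps to move misfolded proteins out for degradation, had 9.90, 9.80 and 10.07 against 6.02, 6.18 and 6.39 (3.73, SE 0.10, adjusted p = 3.15e-11), with eWAT at 5.96. Sdf2l1, a chaperone cofactor, had 10.48, 9.99 and 10.51 against 7.30, 7.59 and 7.32 (2.92, SE 0.20). The groups were far apart for both. Hspa5, the main chaperone of the compartment, was at 12.50, 12.45 and 12.50 against 11.27, 11.12 and 11.24 (1.27, SE 0.07, adjusted p = 1.02e-08). Creld2 (1.74, SE 0.12), Herpud1 (1.29, SE 0.08), Hsp90b1 (0.98, SE 0.09), Xbp1 (0.85, SE 0.08) and Atf6 (0.65, SE 0.07) were higher, and the stress kinase Eif2ak3 was lower (-0.43, SE 0.08).

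That element was found in the promoters of 10 of 24 folding genes (41.7%), against 35 of all 27025 promoters (0.13%), with both strands searched. It was picked for this list, which was made after the values were seen and holds known targets such as Hspa5. The share therefore describes the genes listed and is no result of these arrays. The promoters of Derl3, the gene of the list with the largest difference, and of Hspa5, the classical target, are shown as above with the element in capitals. Derl3 lies at chr10:75893148-75893397 and Hspa5 at chr2:34771840-34772089, both on the plus strand, and in Derl3 the element reads on the opposite strand, 138 bases before the start.
Derl3: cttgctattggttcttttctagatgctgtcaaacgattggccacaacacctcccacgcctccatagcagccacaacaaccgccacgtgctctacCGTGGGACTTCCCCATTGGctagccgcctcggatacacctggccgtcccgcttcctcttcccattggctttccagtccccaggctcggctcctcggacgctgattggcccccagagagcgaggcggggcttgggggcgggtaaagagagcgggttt
Hspa5: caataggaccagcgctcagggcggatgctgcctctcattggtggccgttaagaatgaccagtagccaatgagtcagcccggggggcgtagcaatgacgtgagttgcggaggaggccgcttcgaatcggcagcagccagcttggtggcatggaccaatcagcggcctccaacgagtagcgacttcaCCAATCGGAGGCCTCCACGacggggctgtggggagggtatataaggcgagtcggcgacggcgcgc
The elements of 3 other genes, written on the strand that carries the element with its fixed letters in capitals, differ in the spacer. They lie at chr15:88819520-88819538 for Creld2, at chr14:118937827-118937845 for the cochaperone Dnajc3 and at chr10:86705533-86705551 for Hsp90b1, which holds a further copy 194 bases before its start.
Creld2: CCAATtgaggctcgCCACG
Dnajc3: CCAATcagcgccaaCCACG
Hsp90b1: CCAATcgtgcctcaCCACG

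Genes of the amino acid stress response, which supplies amino acids and folate-bound carbon units through the factor Atf4, were higher in 18 of 23 cases and lower in none, with 2 lower under the centring on 15 reference genes. Atf4 was 0.62 higher (SE 0.08), its partner Ddit3 1.63 higher (SE 0.08) and Trib3, a feedback inhibitor, 1.65 higher (SE 0.13). The mitochondrial folate enzyme Mthfd2 read 9.55, 9.90 and 9.55 against 8.04, 7.49 and 8.02 (1.82, SE 0.17, adjusted p = 1.69e-06), and the serine enzyme Shmt2 differed by 1.81 (SE 0.10). The cystine importer Slc7a11 was 1.93 higher (SE 0.10), Psat1, of serine synthesis, 1.19 higher (SE 0.07) and asparagine synthetase (Asns) 0.88 higher (SE 0.06). For all 11 genes of this list that differed at least 2-fold, eWAT was nearer to the PMEF cultures. Except for Atf3, it lay below both cultures in each of them, as for Slc7a11 at 4.26 against a PMEF mean of 5.65.

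**Figure D2:**
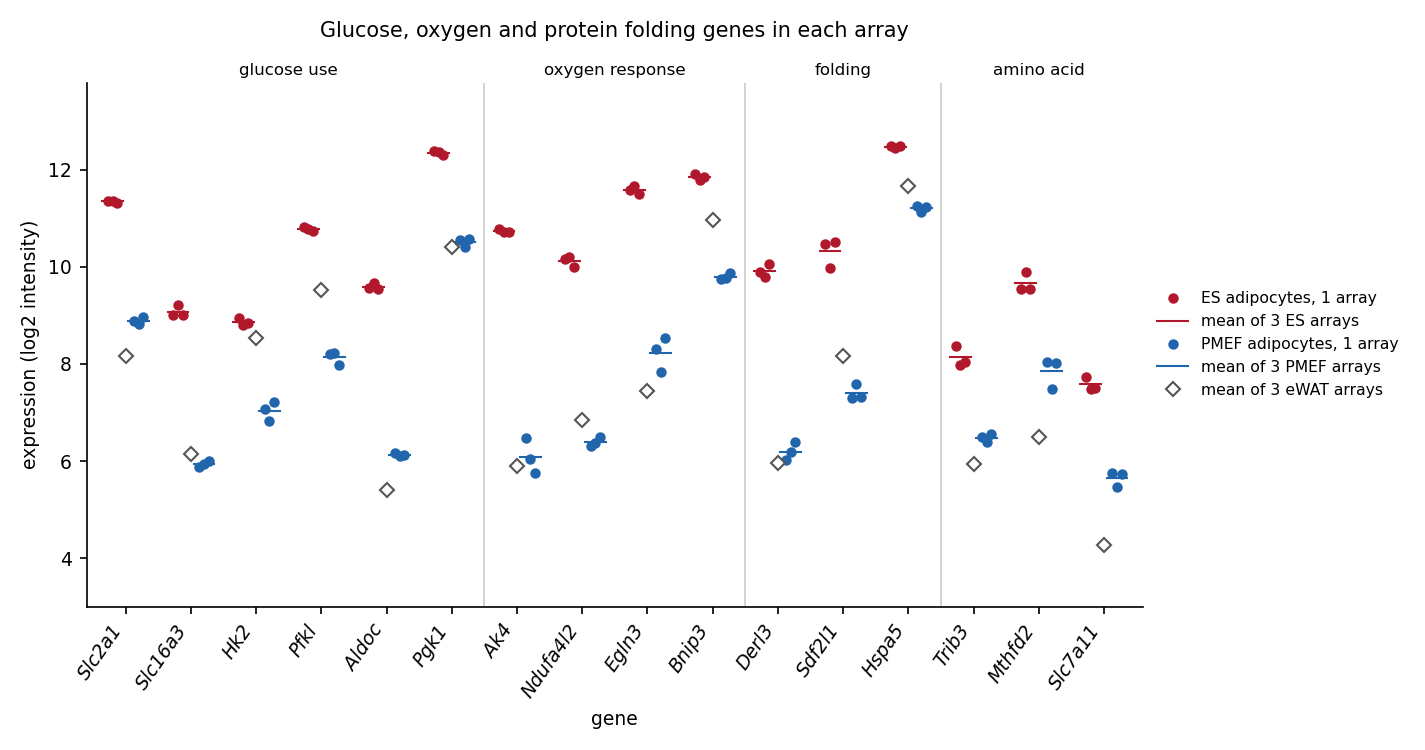
Log2 intensity (vertical axis) of 16 genes of glucose use, the oxygen response, protein folding and amino acid stress (horizontal axis), chosen after their values were seen, with a point for each array, a line at each group's mean and an open diamond at the eWAT mean. In every gene shown the 3 ES arrays (red) lie above the 3 PMEF arrays (blue), and for Ak4 the gap is 25.2-fold.

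Matrix genes gave the broadest difference in the other direction. Fibroblasts make and crosslink the collagen scaffold, and fat cells normally reduce this output as they mature. Of 52 genes of the fibroblast and matrix list, 47 were lower in ES adipocytes and 4 were higher, with 36 at least 2-fold lower and a median of -1.45. For 34 of the 37 genes that differed at least 2-fold, eWAT was nearer to the ES cultures. The 6 defining fibroblast markers summed on the linear scale to 7331 to 7720 in the ES arrays, 21785 to 21966 in the PMEF arrays and 9429 to 10896 in eWAT. How far residual fibroblasts contribute was not tested.

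Collagens were lower in 15 of 16 cases. Col1a1, the main chain of fibrous collagen, had 10.53, 10.49 and 10.59 against 12.17, 12.31 and 12.28 (-1.72, SE 0.09, adjusted p = 5.42e-09), and Col1a2 had 9.71, 9.66 and 9.79 against 11.82, 11.90 and 11.87 (-2.14, SE 0.08). In eWAT these chains were at 10.49 and 9.94, beside the ES arrays. Col8a1, a short-chain collagen, had 6.71, 6.85 and 6.81 against 10.92, 11.02 and 10.72, or 17-fold lower (-4.09, SE 0.12, adjusted p = 4.56e-11). Col12a1 (-2.33, SE 0.09) and Col11a1 (-1.81, SE 0.09) were lower, and Col15a1, of the basement membrane zone, was higher (0.69, SE 0.16).

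All 18 proteoglycans and glycoproteins measured were lower. Fibromodulin (Fmod), which spaces collagen fibrils, was at 7.71, 7.35 and 7.69 against 11.35, 11.25 and 11.22 (-3.69, SE 0.10, adjusted p = 2.95e-11). Its relative lumican (Lum) differed by -2.60 (SE 0.08), the elastic fibre proteins Fbln5 and Fbn2 by -2.58 (SE 0.07) and -2.42 (SE 0.09), and Sparc, a collagen-binding protein, by -0.33 (SE 0.06). Processing enzymes were lower in 14 of 18 cases and higher in 3. The prolyl hydroxylase subunits were split. P4ha3 was at 7.06, 7.32 and 7.35 against 10.34, 10.38 and 10.15 (-3.04, SE 0.17), while P4ha1 was at 10.38, 10.43 and 10.44 against 8.58, 8.63 and 8.63 (1.81, SE 0.10). P4ha2 (0.52, SE 0.10) and the lysyl hydroxylase Plod2 (0.73, SE 0.10) were the other processing enzymes that were higher. P4ha1 and P4ha2 also stand on the hypoxia list, and Plod2 too is among the genes of the lists added after the values were seen. The collagenases Mmp13 (-2.06, SE 0.10) and Mmp14 (-2.01, SE 0.07) and the crosslinking oxidase Loxl3 (-2.18, SE 0.10) were lower.

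Progenitor markers were lower in 17 of 22 cases and higher in 2. Thy1, a surface marker of stromal cells, had 8.75, 8.85 and 8.81 against 11.74, 11.79 and 11.82 (-2.98, SE 0.06, adjusted p = 3.71e-12), with eWAT at 8.52. Cd34 was lower (-2.04, SE 0.09), with eWAT at 10.35 near the PMEF mean of 10.50. Pdgfra, the receptor that marks fat progenitors, differed by -1.57 (SE 0.13), and Zfp521, an inhibitor of fat cell commitment, by -2.29 (SE 0.08). The secreted growth regulator Ccn5 differed by -2.50 (SE 0.07). Dlk1, which holds preadipocytes undifferentiated, was bright in both cultures at 10.42, 10.37 and 10.56 against 11.28, 11.35 and 11.31 (-0.86, SE 0.11), where eWAT had 6.75. The surface enzyme Nt5e (2.03, SE 0.15) and Cd24a (1.77, SE 0.19) were higher in ES adipocytes.

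Contractile genes of smooth muscle and myofibroblasts were lower in all 16 cases measured. Acta2, smooth muscle actin, was at 10.12, 10.29 and 10.21 against 11.79, 11.86 and 11.59 (-1.55, SE 0.09, adjusted p = 1.57e-08). The myosin light chain Myl9 differed by -1.75 (SE 0.15), Actg2 by -1.55 (SE 0.12) and Tagln, which bundles actin, by -1.32 (SE 0.14). Srf, the factor that drives these genes, did not pass (0.10, SE 0.09), while its coactivators Mrtfb (-0.91, SE 0.09) and Mrtfa (-0.69, SE 0.09) were lower.

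Components of Wnt, TGF-beta and BMP signalling, pathways that restrain or steer fat cell formation, were lower in 34 of 59 cases and higher in 6. Among TGF-beta family members, Tgfb3 had 7.03, 7.37 and 7.20 against 9.29, 9.07 and 8.98 (-1.91, SE 0.11), the activin subunit Inhba differed by -1.51 (SE 0.11), the receptor Tgfbr2 by -1.30 (SE 0.08) and Ltbp2, of the latent complex family, by -2.52 (SE 0.08). On the Wnt side the receptor Fzd2 was at 8.20, 8.25 and 8.20 against 9.997, 10.01 and 10.06 (-1.81, SE 0.06, adjusted p = 2.1e-10), and the secreted factors Dkk3 (-2.19, SE 0.10), Dkk2 (-1.91, SE 0.14) and Sfrp2 (-2.04, SE 0.13) were lower. Higher members were the antagonist Sfrp4 (0.82, SE 0.14) and Bmp4, which commits progenitors to fat (0.63, SE 0.17). Among 7 IGF binding proteins 5 were lower, led by Igfbp2 at 6.90, 6.96 and 7.02 against 9.08, 9.07 and 8.98 (-2.08, SE 0.07) and Igfbp6 (-1.73, SE 0.12), and Igfbp4 was higher (0.68, SE 0.08). The insulin receptor (Insr) was higher, at 10.34, 10.37 and 10.41 against 9.27, 9.12 and 9.28 (1.15, SE 0.08, adjusted p = 1.22e-07), beside 10.25 in eWAT.

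**Figure D3:**
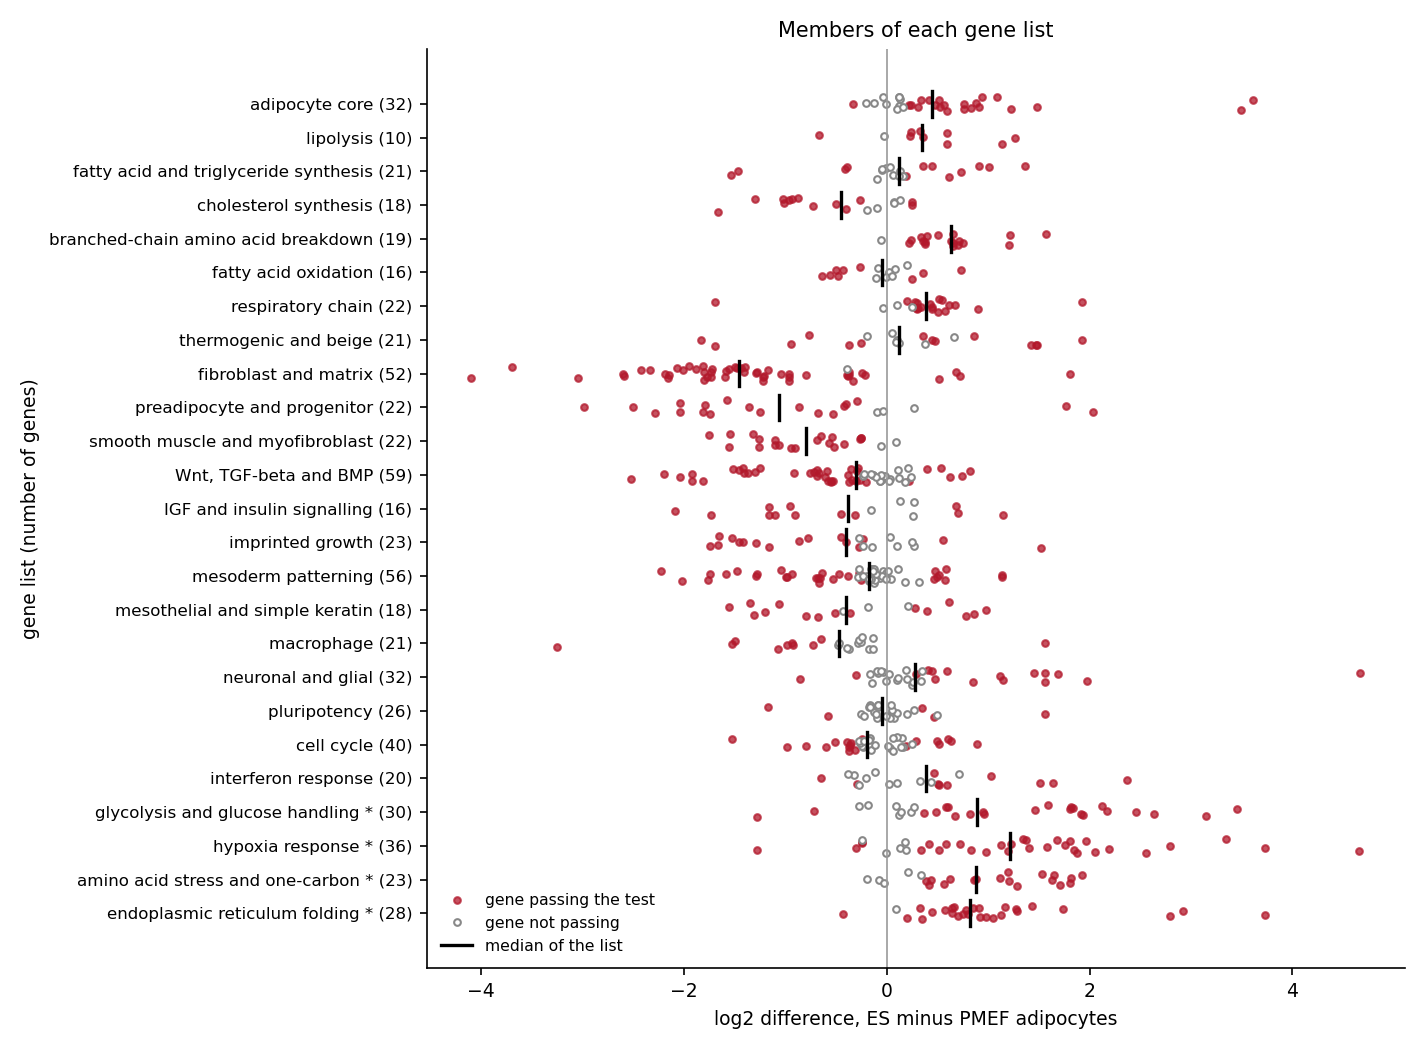
Log2 difference between ES and PMEF adipocytes (horizontal axis) of each measured gene in 25 lists (vertical axis, with the number of genes), filled where the gene passed the test and open where it did not, with a bar at the list's median. Lists marked with an asterisk were chosen after their values were seen. The fibroblast and matrix list has its median at -1.45, and the hypoxia list at 1.21.

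Hox genes, whose combination records where along the body axis a cell arose, differed between the cultures in both directions. Among 37 genes 6 were higher and 19 lower, and Hoxa2, Hoxa3 and Hoxb7 were no longer among the higher genes under the centring on 15 reference genes. Hoxa2 also no longer passed without PMEF replicate 3 (adjusted p = 0.0817) or ES replicate 1 (adjusted p = 0.0602). The higher genes Hoxb2, Hoxb4 and Hoxb7 lie on chromosome 11, whose genes were shifted upward as a whole, and 3 were higher without that chromosome and chromosome 8. Arranged by paralog group, a split chosen after the values were seen, 5 of 14 genes of groups 1 to 5 were higher and 3 lower, whereas 1 of 23 genes of groups 6 to 13 was higher and 16 were lower. Hoxb2 was at 8.23, 8.24 and 8.18 against 6.74, 6.92 and 6.87 (1.37, SE 0.07, adjusted p = 4.57e-09), and Hoxb4 (0.98, SE 0.09) and Hoxa5 (0.78, SE 0.07) were higher too. Hoxc8, of the trunk region, was at 7.69, 7.57 and 7.73 against 10.46, 10.52 and 10.49, or 7.11-fold lower (-2.83, SE 0.09, adjusted p = 1.06e-10), and the eWAT mean of 10.51 lay within the range of the PMEF arrays. Hoxc9 (-2.27, SE 0.11), Hoxc10 (-2.37, SE 0.11), Hoxa9 (-1.22, SE 0.07) and Hoxa10 (-1.04, SE 0.13) were lower as well. Hoxc10 had a mean of 4.34 in ES adipocytes, below the 25th percentile of all genes (4.87), so its size rests on a value near background. For all 8 Hox genes that differed at least 2-fold, eWAT was nearer to the PMEF cultures.

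**Figure D4:**
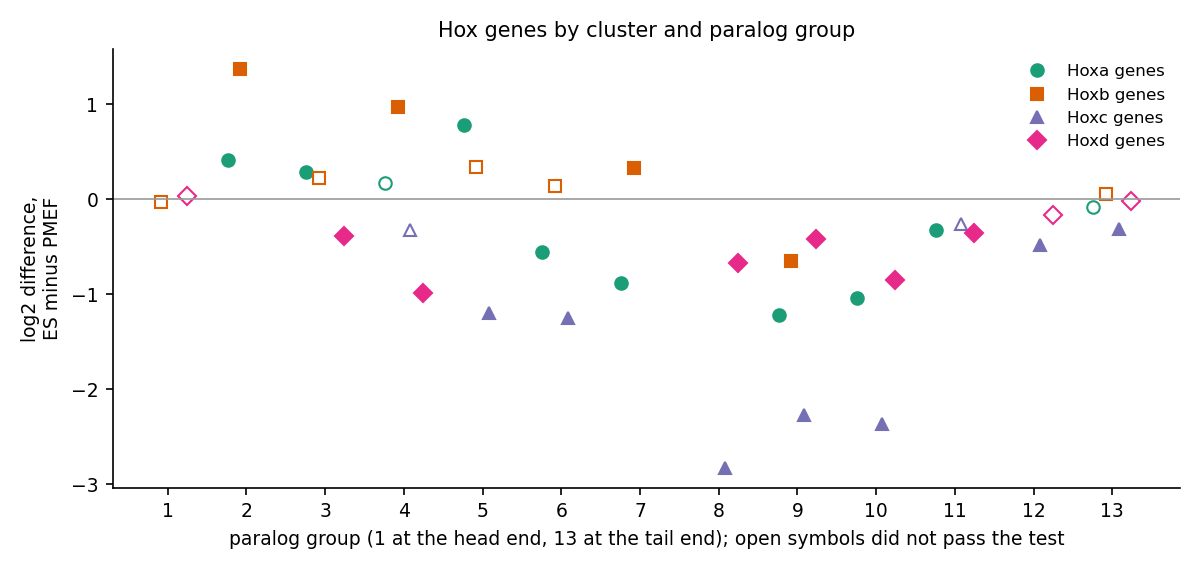
Log2 difference between ES and PMEF adipocytes (vertical axis) of 37 Hox genes by paralog group (horizontal axis) and cluster (colour and symbol), filled where the gene passed the test. Hoxb2 (1.37) and Hoxb4 (0.98) lie above 0, and the Hoxc genes of groups 8 to 10 reach from -2.27 to -2.83.

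Other patterning factors of mesoderm were lower in 22 of 56 cases and higher in 8, with 34 lower under the centring on 15 reference genes and 5 higher with the dimmest 33.3% of genes left out. Meox2, a somite factor, was at 6.09, 6.16 and 6.29 against 8.49, 8.38 and 8.33 (-2.22, SE 0.14), with eWAT at 8.87. Factors of limb and body wall mesenchyme were also lower, among them Prrx2 (-2.01, SE 0.10), Osr2 (-1.76, SE 0.14), Tbx15 (-1.74, SE 0.13) and Emx2 (-0.99, SE 0.13). Tbx5, of the forelimb and heart field, differed by -0.70 (SE 0.12) and En1 by -0.99 (SE 0.10). Tfap2a, a factor of neural crest and surface ectoderm, was higher, at 6.19, 6.11 and 6.18 against 4.79, 5.05 and 5.22 (1.14, SE 0.11), and so was its relative Tfap2b (1.13, SE 0.24), with an ES array at 6.17 and the other ES arrays at 4.94 and 5.04.

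Imprinted genes that control fetal growth were lower in 14 of 23 cases and higher in 2. Mest was at 8.81 to 9.10 in the ES arrays against 10.77, 10.70 and 10.66 (-1.74, SE 0.12), Plagl1, a factor of the imprinted network, differed by -1.66 (SE 0.10), the cell cycle inhibitor Cdkn1c by -1.53 (SE 0.07) and Grb10, an inhibitor of insulin signalling, by -1.45 (SE 0.07). The noncoding RNAs Meg3 (9.94, 9.89 and 9.99 against 11.23, 11.18 and 11.28) and Rian of the Dlk1 cluster were lower, by differences of -1.29 (SE 0.07) and -1.65 (SE 0.08). Igf2r, which clears the growth factor Igf2, differed by -1.16 (SE 0.08), and Igf2 itself did not pass (0.27, SE 0.15, adjusted p = 0.162). Peg10 was higher, at 11.97, 11.99 and 12.07 against 10.52, 10.45 and 10.48 (1.53, SE 0.09, adjusted p = 1.45e-08). Allelic expression was not measured.

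Markers of cells other than fat were read in both cultures, since ES cell cultures can hold derivatives of several germ layers. Neuronal and glial genes were higher in 14 of 32 cases and lower in 2, with 8 at least 2-fold higher. With the dimmest 33.3% of genes left out 7 were higher, and under the centring on 15 reference genes 6 were lower. The lower count was 1 without PMEF replicate 3 or any of the ES replicates, under the other scalings, with dim genes left out, in a fit of the 6 arrays alone and with a trended and robust variance. Fabp7, a fatty acid binding protein of radial glia, had the largest rise of all named genes, at 10.59, 11.22 and 10.86 against 6.45, 6.15 and 6.07, or 25.4-fold (4.67, SE 0.17, adjusted p = 3.39e-10). The glial filament Gfap was at 6.68, 7.19 and 6.87 against 4.84, 5.07 and 4.91 (1.97, SE 0.12), and Sox2 at 5.55, 5.83 and 5.51 against 3.82, 4.16 and 4.23 (1.56, SE 0.12). The neuronal filament Ina (1.69, SE 0.15), the migration protein Dcx (1.57, SE 0.16), the growth protein Stmn2 (1.46, SE 0.21) and the synaptic Snap25 (1.15, SE 0.13) were higher. In Fabp7, Gfap, Sox2, Ina, Dcx, Stmn2 and Snap25 ES replicate 2 was the highest of the 3 ES arrays. Without it 12 genes of the list were higher and 1 was lower, and Fabp7 differed by 4.51. The 5 defining neuronal markers summed on the linear scale to 354 to 564 in ES arrays, 174 to 201 in PMEF arrays and 163 to 185 in eWAT. The brightest of the 5 was Stmn2, with means of 7.72 in ES and 6.26 in PMEF adipocytes. Tubb3, also among the 5, did not pass, with means of 4.71 and 4.75 (-0.04).

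Pluripotency genes were higher in 3 of 26 cases and lower in 2, counts that moved with the scaling. The largest difference on the list was 1.56, the 1 rise of at least 2-fold. Sox2, given above with the neural genes, is also a pluripotency gene and was higher. Higher were 5 under quantile normalization, median centring and the centring on 13 reference genes, and lower were 4 under quantile normalization and 11 under the centring on 15. Pou5f1 gave 4.31, 4.18 and 4.15 against 4.35, 4.26 and 4.28 (-0.08, SE 0.10), and Nanog 5.42, 5.42 and 5.36 against 5.27, 5.33 and 5.44 (0.05, SE 0.08), so that the arrays of the groups overlapped for both. Summed over 5 defining markers, pluripotent signal was 141 to 165 in ES arrays and 121 to 148 in PMEF arrays. Klf4, which fibroblasts also express, was lower (-1.17, SE 0.10).

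Mesothelial and simple epithelial genes went both ways, with 6 of 18 higher and 9 lower. Upk3b was at 7.44, 7.24 and 7.73 against 8.81, 9.07 and 8.57 (-1.35, SE 0.16), and Msln (-1.31, SE 0.10), Upk1b (-1.19, SE 0.12) and the placental cadherin Cdh3 (-1.55, SE 0.10) were lower. The keratin Krt8 (0.87, SE 0.11) and the epithelial cadherin Cdh1 (0.78, SE 0.08) were higher. Wt1 was 0.28 higher (SE 0.09), a call lost without PMEF replicate 2 (adjusted p = 0.0623), without ES replicate 1 (adjusted p = 0.0972) and under the centring on 15 reference genes (0.10, adjusted p = 0.337).

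Macrophage genes were lower in 9 of 21 cases and higher in 1, with 15 lower in a fit of the 6 arrays alone. Lyz2, the lysozyme of myeloid cells, was at 4.74, 5.04 and 4.72 against 8.41, 7.82 and 8.02, or 9.51-fold lower (-3.25, SE 0.20, adjusted p = 2.75e-08), where eWAT had 11.50. C1qb (-1.52, SE 0.24) and the mannose receptor Mrc1 (-1.49, SE 0.21) were lower. Cd68, a lysosomal protein that other cells make too, was the higher one, at 8.59, 8.81 and 8.58 against 7.19, 7.05 and 7.08 (1.56, SE 0.19), and lies on chromosome 11. The defining macrophage markers summed to 150 to 165 in ES arrays, 471 to 594 in PMEF arrays and 4772 to 9080 in eWAT. Class II antigen presentation genes were near the low end in both cultures, with H2-Aa at means of 3.81 and 3.90 against 11.32 in eWAT, although H2-Ab1 (0.89, SE 0.13) and Cd74 (0.68, SE 0.18) were higher in ES adipocytes.

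Endothelial genes were higher in 3 of 20 cases and lower in 6, with 1 higher without PMEF or ES replicate 3 or under the centring on 15 reference genes. The defining endothelial markers summed to 193 to 219 in ES arrays and 177 to 180 in PMEF arrays, against 4282 to 5588 in eWAT. The junction protein Cdh5 was 1.04 higher (SE 0.11), while Flt1, a receptor for vascular growth factors, was at 7.06, 7.25 and 7.23 against 9.07, 9.04 and 8.96 (-1.84, SE 0.07) and Eng differed by -1.74 (SE 0.12). Of the endoderm and hepatic list, 6 of 19 genes were higher and 2 lower (4 lower under that centring). Transferrin (Trf), which fat cells also make, was at 11.02, 11.15 and 10.95 against 8.89, 8.77 and 9.04 (2.14, SE 0.09, adjusted p = 1.28e-09), with eWAT at 12.50, and albumin (Alb) was 1.18 higher (SE 0.21). Chondrocyte and bone genes were lower in 10 of 20 cases, including Omd (-2.14, SE 0.08) and Comp (-1.18, SE 0.08), and higher in 2, with 6 lower without PMEF replicate 3 and 4 with the dimmest 33.3% of genes left out. Striated muscle genes passed in 9 of 37 cases, with Tnnt2 at -1.14 (SE 0.08). Of the 37, 2 were higher and 7 lower, the latter near the 19% of all genes. Under the centring on 15 reference genes 23 striated muscle genes were lower. The higher count was 1 under that centring, with dim genes left out, in a fit of the 6 arrays alone, with a replicate block, with a trended and robust variance, and without PMEF replicate 1 or 2 or ES replicate 2 or 3. Among blood lineage genes 1 of 15 was higher, the stem cell factor receptor Kit, at 6.84, 7.40 and 6.99 against 5.06, 5.36 and 5.44 (1.79, SE 0.15). Another 1 was lower and 13 did not pass, among them Hbb-bh1 (-0.12), Hba-x (-0.15) and Gata1 (-0.02). The lower count was 2 under the centring on 15 reference genes and in a fit of the 6 arrays alone, and 0 with dim genes left out.

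Inflammatory and interferon genes differed in both directions. Lcn2, an iron-binding acute phase protein that fat cells secrete, was at 10.26, 10.29 and 10.17 against 6.42, 6.47 and 6.06, or 15.1-fold higher (3.92, SE 0.24, adjusted p = 2.5e-08), with eWAT at 7.02. The chemokines Cxcl13 (2.48, SE 0.52) and Cxcl10 (1.50, SE 0.32) were higher, while Ccl8 (-1.92, SE 0.36), Cxcl12 (-1.48, SE 0.10) and the complement protease C1s1 (-1.65, SE 0.11) were lower. Over the inflammatory list 8 of 33 genes were higher, near the 23.6% of all genes, and 13 were lower, against 19% of all genes. Of 20 interferon response genes 8 were higher and 2 lower, with 5 and 4 under the centring on 15 reference genes and 4 lower without PMEF replicate 1. Mx2 was at 7.75, 8.09 and 7.69 against 5.39, 5.45 and 5.59 (2.37, SE 0.18), and the antiviral Rsad2 (1.64, SE 0.24) and the deconjugase Usp18 (1.51, SE 0.29) were higher, whereas Ifit2 was lower (-0.65, SE 0.18).

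Cell cycle genes were higher in 7 of 40 cases and lower in 13, with 23 lower and 4 higher under the centring on 15 reference genes. The lower count was 8 without PMEF replicate 1 and 7 without ES replicate 1, and the higher count 4 without PMEF or ES replicate 2. The proliferation marker Mki67 gave 6.64, 6.53 and 6.56 against 7.01, 7.06 and 6.75 (-0.36, SE 0.12, adjusted p = 0.0234), and Cdk1 differed by -0.24 (SE 0.08, adjusted p = 0.0266). The call of Mki67 was lost without PMEF replicate 1 or 2 or ES replicate 2 or 3 (adjusted p = 0.0597 to 0.0944), and that of Cdk1 without PMEF replicate 1 or 2 or ES replicate 1 or 3 (adjusted p = 0.0581 to 0.116). Rrm2, for nucleotide supply, was lower (-0.98, SE 0.12), and the retinoblastoma gene Rb1 was higher (0.89, SE 0.07). Among 15 p53 targets 3 were higher and 6 lower, where 23.6% of all genes were higher and 19% lower. Gadd45a was higher (1.31, SE 0.14), Perp (-1.97, SE 0.15) and Fas (-1.15, SE 0.11) were lower, and Mdm2 did not pass (-0.12, SE 0.08). Without PMEF or ES replicate 2, or under the centring on 15 reference genes, 1 of the targets was higher.

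The X-linked genes Xist and Hprt had the largest falls of genes with an established name. Xist, the noncoding RNA of X inactivation in females, was at 3.82, 4.20 and 4.08 in the ES arrays and at 10.06, 10.06 and 10.07 in the PMEF arrays (-6.03, SE 0.09, adjusted p = 3.19e-13), with eWAT at 3.92. The Y-linked gene Eif2s3y was at 9.27, 9.42 and 9.27 against 8.76, 8.50 and 8.45 (0.75, SE 0.11), and Uty at 7.93, 7.99 and 7.90 against 7.83, 7.70 and 7.56 (0.24, SE 0.09, adjusted p = 0.0567). The PMEF arrays thus read high for Xist and for Y-linked genes alike. Kdm5d, also on the Y chromosome, went the other way, at 4.75, 5.04 and 4.62 against 6.91, 6.41 and 6.35 (-1.75, SE 0.14), with eWAT at 7.46. Hprt, the purine salvage enzyme often used as a reference gene, was at 4.17, 4.57 and 4.60 against 10.17, 9.91 and 10.14, with eWAT at 9.59 (-5.63, SE 0.14, adjusted p = 2.28e-11). All 3 ES arrays lay below the 25th percentile of genes for both Xist and Hprt, so these differences are imprecise in size. The reference gene Actb, beta-actin, did not pass (-0.14, SE 0.06).

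Further genes with large differences fall outside these lists. Ifi202b, an interferon-inducible DNA sensor that varies between mouse strains, was at 7.56, 7.82 and 7.60 against 3.13, 3.56 and 3.45 (4.28, SE 0.13), and Trim30d was at 3.68, 3.04 and 3.87 against 7.07, 7.41 and 7.52 (-3.80, SE 0.25). Nxf3 (3.95, SE 0.18), Gkn2 (3.71, SE 0.13) and the germ cell protein Rbm46 (3.43, SE 0.10) were likewise higher, as was Prelid2 (3.12, SE 0.11), with PMEF means of 3.68 to 5.18 and eWAT means of 3.54 to 5.10. Among the falls, Egfl6, a secreted matrix protein, was at 5.30, 5.05 and 5.19 against 10.15, 9.95 and 9.83 (-4.80, SE 0.11), the carboxypeptidase Cpa6 differed by -4.74 (SE 0.09), the secreted C1qtnf3 by -4.29 (SE 0.11), Itgbl1 by -4.23 (SE 0.17) and the tendon protein Tnmd by -3.79 (SE 0.10). For these 5 genes eWAT was on the ES side, with means of 4.15 to 6.99. The lectin Reg3g differed by -4.25 (SE 0.18), Clca3a1 by -4.24 (SE 0.18), the matrix protein Hmcn1 by -4.08 (SE 0.26) and Ctla2a by -3.82 (SE 0.20), also with eWAT on the ES side. The cytochrome P450 Cyp2f2 differed by -3.88 (SE 0.12), with eWAT at 10.70 beside the PMEF mean of 10.70. AI506816, which bears the name of a sequence tag and was named after its value was seen, had the largest fall of all genes, at 3.71, 2.92 and 2.68 against 9.42, 9.48 and 9.43 (-6.34, SE 0.20), with eWAT at 9.01. Reg1, a secreted lectin, was at 8.14, 7.89 and 8.28 against 11.94, 11.98 and 11.85 (-3.82, SE 0.13), where eWAT had 4.80, and the angiotensin receptor Agtr2 was at 9.27, 9.30 and 9.37 against 11.10, 11.09 and 10.96 (-1.74, SE 0.20), where eWAT had 4.60.

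Genes of chromosomes 8 and 11 were shifted upward in ES adipocytes as a whole. This was noticed in the data, so it is given as a description without a test. Over genes with a mean over 8 on the log2 scale, the median difference was 0.48 for 434 genes of chromosome 11 and 0.32 for 267 genes of chromosome 8, while the medians of the other 18 chromosomes lay between 0.03 and 0.14. Of the chromosome 11 genes 71.4% were called higher and 10.8% lower, and of the chromosome 8 genes 58.8% and 16.5%, against 37.8% and 25.7% elsewhere. Divided into 4 consecutive groups of genes along the chromosome, the medians were 0.44 to 0.55 on chromosome 11 and 0.24 to 0.40 on chromosome 8, so the shift was not limited to a segment. Over all genes, dim ones included, the medians were 0.11 and 0.09 against -0.03 elsewhere.

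The shift was seen in each ES array and not in the PMEF arrays. Set against the eWAT mean and relative to the other chromosomes, chromosome 11 stood at 0.35, 0.39 and 0.40 in the ES arrays and at 0.02, 0.02 and 0.01 in the PMEF arrays, and chromosome 8 at 0.26, 0.27 and 0.27 against 0.05, 0.05 and 0.05. DNA copy number was not measured. Several genes named above lie on these chromosomes, among them Srebf1, Slc2a4, Aldoc, Slc16a3, Acadvl, Xbp1, Hoxb2, Hoxb4, Gfap and Cd68 on 11 and Agt, Lpl, Insr, Cox4i1, Egln1, Herpud1, Cdh1 and Cdh5 on 8, and how far the shift contributes to the difference of any of them was not tested. With the genes of both chromosomes left out, the adipocyte core list had 17 higher and 1 lower with a median of 0.48, and the fibroblast and matrix list 3 higher and 40 lower with a median of -1.52. Without them 1 striated muscle gene was higher in place of 2, and none of the IGF and insulin signalling list in place of 3 (Insr, Irs2 and Igfbp4).

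**Figure D5:**
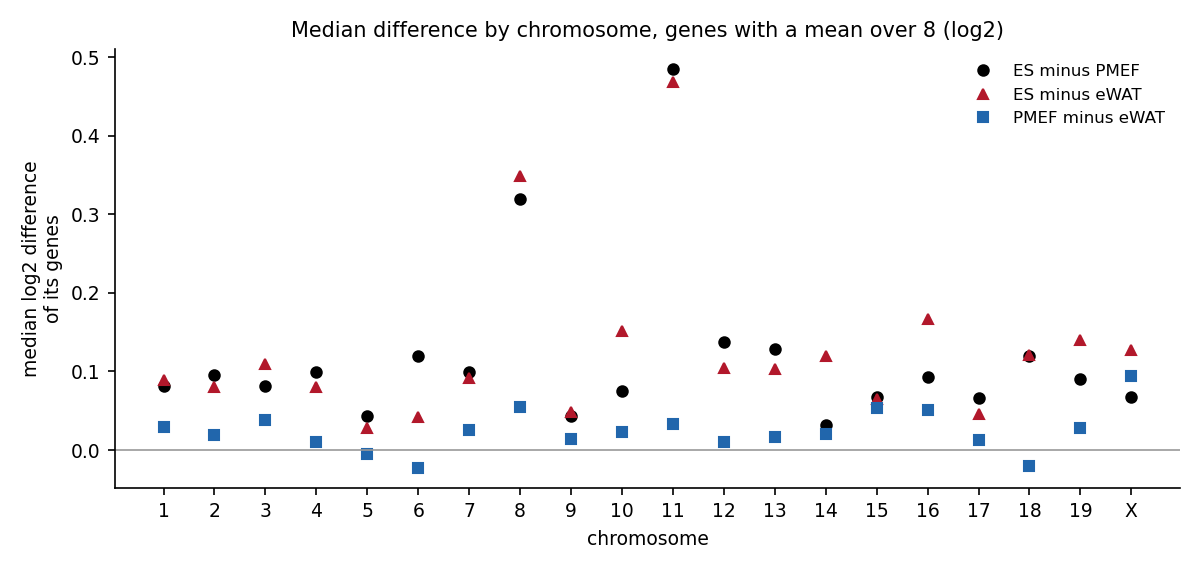
Median log2 difference (vertical axis) over the genes of each chromosome (horizontal axis) with a mean over 8, for ES minus PMEF (black circles), ES minus eWAT (red triangles) and PMEF minus eWAT (blue squares), which share their arrays. Chromosome 11 (0.48) and chromosome 8 (0.32) stand above the others in the comparisons that contain ES adipocytes, and not in PMEF minus eWAT (0.03 and 0.05).

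Across all 1338 genes that differed at least 2-fold, eWAT was nearer to the ES mean for 720 and to the PMEF mean for 618. The direction of the difference divided them. Of the 832 genes lower in ES adipocytes, eWAT was nearer to ES for 561, and of the 506 genes higher in ES adipocytes it was nearer to PMEF for 347. Tissue lay below both cultures for 350 of the 832 and 179 of the 506, and above both for 127 and 76. Below both, the nearer culture is always the lower one, and above both always the higher one. For such genes the nearer side follows from the direction alone and is no measure of likeness to tissue. The list counts of nearer genes given above carry the same limit, and so do the single genes for which tissue was placed nearer to a culture or on its side. For 4 of the 5 core list genes that were at least 2-fold higher, eWAT was nearer to ES. Of these, it lay above both cultures for Pck1, Slc2a4 and Cidea, where direction alone sets the side, and between the cultures for Rbp4. Of 14 glycolysis list genes at least 2-fold different, 13 of them higher, it was nearer to ES for 8. These counts share the ES and PMEF arrays that chose the genes, so they describe them and test nothing.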

How the data were processed

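Total RNA was extracted with TRIzol and 300 ng of each sample was amplified and biotin-labelled with the Ambion WT Expression kit, per the labels' protocols. The authors deposited log2 intensities of 35556 probe sets on each of 12 Affymetrix arrays. How they summarised and normalized the arrays is not given in the sources used here. Values from 1.11 to 13.48 were taken as log2 from this range and used as deposited. Compression near the top of this scale and background near its bottom understate differences, and without detection calls a low value is only near background. The number of arrays limits the precision.

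Probe sets with exactly 1 gene symbol (21789) were kept, those with several (1621) or none (12146) were left out, and for 999 genes with more than 1 the brightest probe set on average across all arrays was used, which left 19938 genes. Symbols were matched by Entrez ID to RefSeq for 21698 probe sets. ES minus PMEF was a contrast of a limma model (version 3.58.1, R 4.3.3) with 4 groups and 12 arrays, moderated with eBayes (8 residual and 4.88 prior degrees of freedom). Genes with a Benjamini-Hochberg adjusted p under 0.05 were called. The fit was tested on simulated data.

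The comparison, gene lists and genes named were chosen with earlier results of these data known. The text names the 15 largest rises and falls, and takes its other genes from the 4 largest rises and falls and the 2 brightest uncalled genes of each list or role, and from a set of standard genes. Clone and sequence tag names, gene models and receptor families were left out of the ranking. The lists for glycolysis, hypoxia, amino acid stress and endoplasmic reticulum folding, the chromosome medians, the paralog split, the centring on 13 reference genes and the removal of chromosomes 8 and 11 were added after seeing the data, and genes of those 4 lists were named after their values were seen. The promoter motifs searched for the hypoxia, glycolysis and folding lists were likewise added after seeing the data. Planned motif searches for the cell cycle, smooth muscle and cholesterol lists are not shown. Figures and summaries used Python with pandas.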

Additional observations from a re-analysis of the deposited data

How the results depend on the processing

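The direction and size of the main comparison held under quantile normalization, centring on array medians, averaging of probe sets per gene, removal of the dimmest 33.3% of genes, a fit of the 6 arrays alone, and a trended and robust variance, with 7912 to 8550 genes called against 8501. Leaving out each array in turn gave 7455 to 8665. Centring on 15 reference genes called 11307 genes, and the counts that moved past 1.5 times were 2957 higher against 4713, 8350 lower against 3788, and 302 at least 2-fold higher against 506. This follows from the shift of every gene by the centring, and Pgk1 and Tfrc carried it, since the 13 other reference genes gave 4951 higher and 3433 lower.

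Groups share replicate numbers in the labels. Deviations of same-numbered ES and PMEF arrays correlated across genes at -0.01, -0.11 and 0.05, and those of differently numbered arrays at -0.11 to 0.11. Same-numbered arrays did not stand out, which cannot exclude a pairing, and the main fit treated the arrays as unpaired. With a replicate block 8287 genes were called, 4585 higher and 3702 lower, with 506 and 832 at least 2-fold.

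Of 253 genes named, 230 kept the same call under every setting in which they were tested, and no called gene changed direction in them. With dim genes left out, 11 of the 253 were not tested. The 3 arrays in each group limit what can be detected, and differences near background are imprecise.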
